A study of Danio rerio with 24 samples.

Results

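Hox genes, the homeobox transcription factor genes that assign position along the head-to-tail axis, were followed in primordial germ cells (PGCs) of the zebrafish, the embryonic founders of eggs and sperm. Every gene whose deposited name began with hoxa, hoxb, hoxc or hoxd followed by a paralog number was taken, which gave 48 of 32520 genes. They fall into 7 clusters, with 6 genes in hoxaa, 5 in hoxab, 11 in hoxba, 4 in hoxbb, 11 in hoxca, 4 in hoxcb and 7 in hoxda. By paralog number 9 genes belong to the anterior groups 1 to 3, 16 to the central groups 4 to 8 and 23 to the posterior groups 9 to 13.

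PGCs were sorted by their fluorescent label from transgenic embryos kept in Holtfreter's water, for RNA profiling during gastrulation (75% epiboly) and 1 day after fertilization (1 dpf). In one experiment, 3 libraries from wild-type controls were set against 3 from embryos with a conditional knockout (smad1-cKO), in which guide RNAs removed smad1 in the germline. In the other, wild-type embryos carried a control morpholino (control-MO) or a smad1 morpholino (smad1-KD), with 2 libraries per group and stage. A morpholino is an antisense oligomer that acts in the whole embryo, so the smad1-KD reaches the tissues around the PGCs as well, whereas the knockout is meant to be restricted to the PGCs. Smad1 is a transcription factor that carries BMP signals, and the design asks how its loss bears on PGCs. The values were TPM, which scale each transcript by its length and by the library total. Depth cannot be read from TPM and is unknown here, and between 13371 and 24547 genes per library lay above 0 TPM. The labels name no separate clutches, so a p-value here reflects only how these libraries vary, and that variation may be technical.

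Hox genes lie in clusters in the order in which they are expressed along the body, with low-numbered genes used towards the hindbrain and high-numbered genes towards the tail and in fin and limb tips. They also switch on in that order in time, the low numbers during gastrulation and the high numbers later in the growing tail. Retinoic acid activates many anterior Hox genes, FGF, Wnt and the Cdx factors act on more posterior ones, and Polycomb complexes keep the clusters silent where they are not used. Teleosts carry additional copies from a whole-genome duplication, which the final letter a or b marks. In germ cells Hox genes are best known as a somatic programme that the germline restrains.

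A limit applies to several members. The identifier of the row named hoxa4a is listed under the symbol HOXA3 in the identifier table used here, while the identifiers of the other 47 members match their names, so the row may hold reads of hoxa3a as well. In RefSeq 17 of the 48 members overlap the annotated span of another Hox gene. hoxc3a has the most such neighbours, namely hoxc4a, hoxc5a, hoxc6a, hoxc8a and hoxc9a. Others are hoxb1b with hoxb5b and hoxb6b, hoxb3a with hoxb4a, hoxb5a and hoxb6a, and hoxa4a and hoxa5a with hoxa3a. The counting is not stated to use strand, so reads shared between such neighbours, or with the overlapping genes annotated beside 30 members, cannot be told apart. The amplification kit gave full-length cDNA, and TPM compare levels between genes per length.

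Markers of other cells were present in all libraries. All 12 germ cell markers, such as nanos3 and the helicase gene ddx4, stood at 1 TPM or more in every library of the cKO experiment, and 10 to 12 of them did so in the KD experiment. Their summed level was 4631 to 34408 TPM in the cKO experiment and 1063 to 5259 TPM in the KD experiment. In bulk samples fewer cells of a type and less RNA per cell cannot be told apart, and whether the Hox transcripts came from PGCs or from other sorted cells was not tested. The targeted gene, smad1, was measured at 1 dpf at 140.0, 140.0 and 134 TPM in control libraries, against 16.4, 12.5 and 11.7 TPM in smad1-cKO libraries (limma log2 difference -3.28, SE 0.19, adjusted p = 5.27e-04), and lower without a call in the other 3 comparisons (log2 differences of -1.99 and -1.33 at 75% epiboly for cKO and KD, and -0.84 for the KD at 1 dpf). In the KD at 1 dpf smad1 stood at 201 and 193 TPM with the control-MO and at 170.3 and 70.3 TPM with the smad1-MO. The groups were separated, but smad1-KD replicate 1 lay close to the control-MO libraries, and the difference was -0.21 without smad1-KD replicate 2 and -1.47 without smad1-KD replicate 1.

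At 75% epiboly Hox transcripts were scarce in sorted PGCs. The 48 genes together summed to 40.9, 27.5 and 190.3 TPM in the controls of the cKO experiment and to 54.7, 16.3 and 112 TPM in smad1-cKO libraries. In the KD experiment the sums were 24.1 and 52.5 TPM with the control-MO and 17.7 and 15.4 TPM with the smad1-MO. The replicate 3 libraries of the cKO experiment thus held the highest sums of the stage in both genotypes. Those libraries also had the lowest germ cell marker sums of the experiment at this stage, 4631 and 5455 TPM against 12131 to 34408 TPM in the other 4. Their markers of endoderm, yolk layer and liver summed to 1430.4 and 501 TPM against 88.0 to 263 TPM in the other 4. Those of paraxial mesoderm, tailbud and muscle summed to 1646 and 1804 TPM against 534 to 1449 TPM. Those of lateral plate, pronephros and fin bud summed to 245 and 60.2 TPM against 17.4 to 71.1 TPM. The part of these differences in the Hox sums was not tested.

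**Figure D1:**
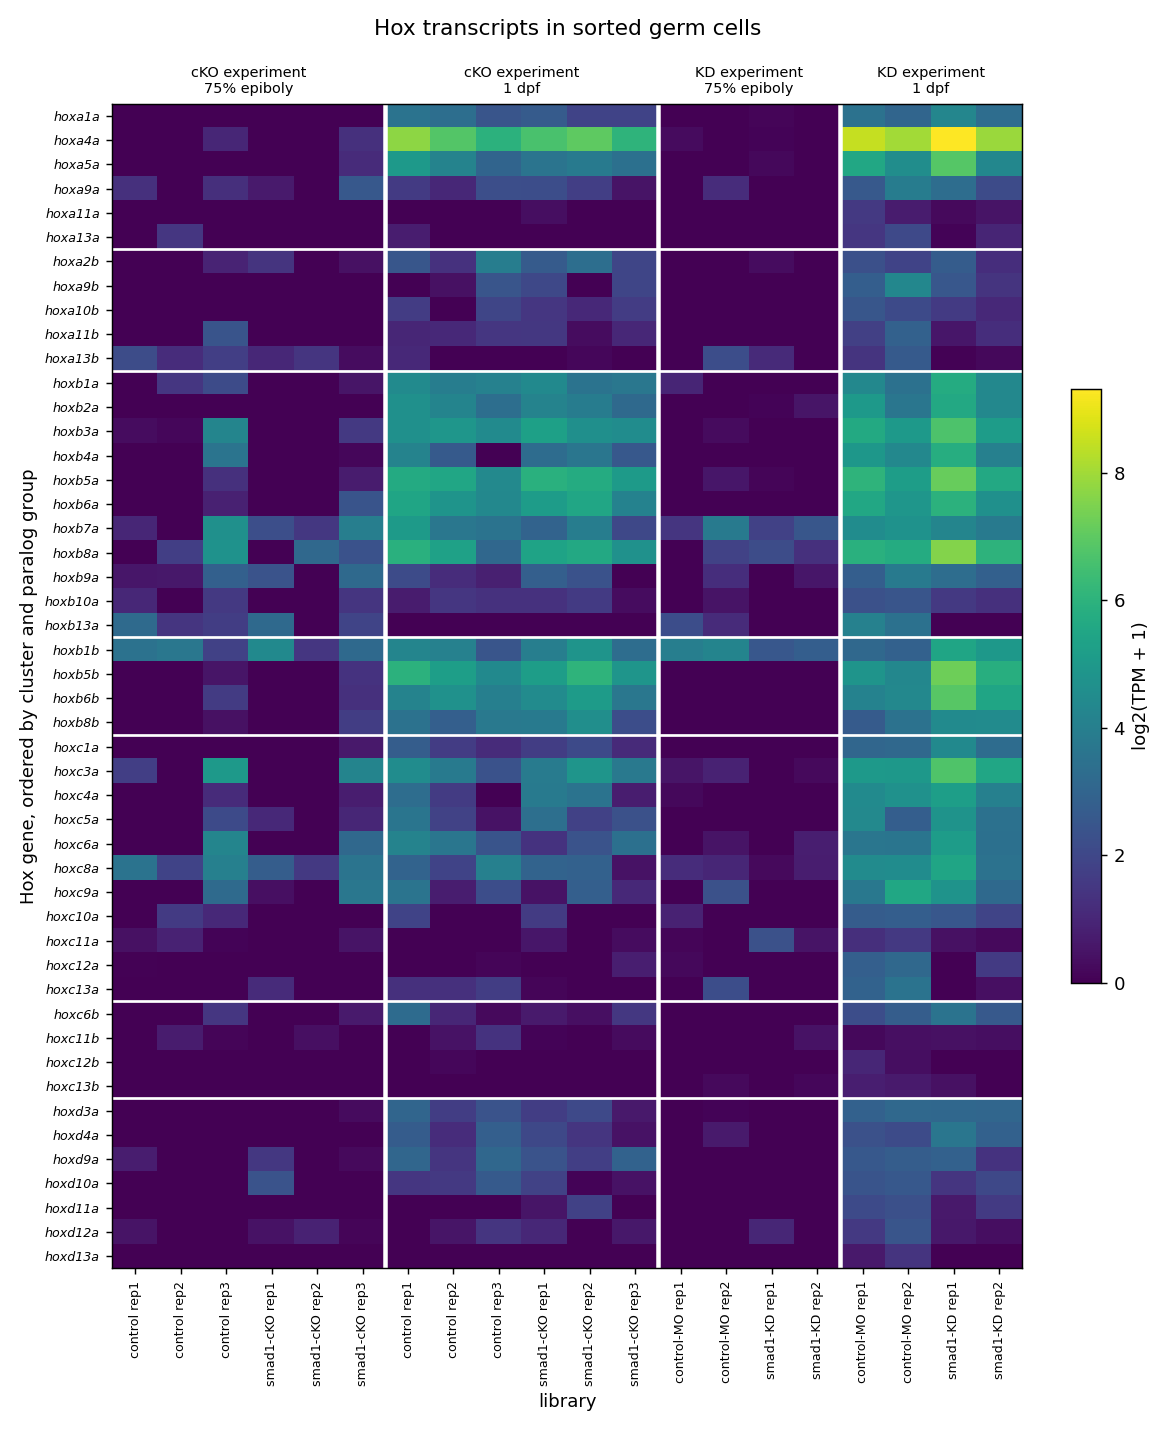
Level of each of the 48 Hox genes (vertical, ordered by cluster, with white lines between clusters) in each of the 20 libraries (horizontal), as log2(TPM + 1) by colour. Most cells of the 75% epiboly columns are dark; the brighter ones are hoxb1b, hoxb and hoxc genes in the replicate 3 libraries of the cKO experiment, and single genes elsewhere, such as hoxc8a at 10.7 TPM in control replicate 1 and hoxb7a at 13.1 TPM in control-MO replicate 2. At 1 dpf the hoxa4a row is the brightest.

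One anterior gene stood out at this stage. hoxb1b, a paralog group 1 gene that is activated early in the gastrula and helps to pattern the hindbrain, was the single member at 1 TPM or more in all 10 libraries. Its levels were 10.5, 11.8 and 2.45 TPM in controls, 20.5, 1.77 and 8.14 TPM in smad1-cKO libraries, 14.7 and 17.54 TPM with the control-MO and 4.74 and 5.91 TPM with the smad1-MO. Its duplicate hoxb1a, which later marks rhombomere 4 of the hindbrain, was lower than hoxb1b in 9 of the 10 libraries and highest at 3.36 TPM.

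Most central genes were listed at 0 in the libraries of replicates 1 and 2. hoxb7a, a trunk gene, reached 24.6 and 14.8 TPM in the replicate 3 libraries of control and smad1-cKO, and lay between 0 and 3.66 TPM in the other 4 libraries of the experiment. hoxc3a, of the anterior groups, stood at 2.28, 0 and 30.7 TPM in control libraries against 0, 0 and 17.2 TPM in smad1-cKO libraries. hoxc8a, also a trunk gene, was more even, with 10.7, 2.68 and 15.7 TPM in the controls and 5.72, 1.94 and 10.97 TPM in smad1-cKO libraries.

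Among the posterior genes, the paralog group 13 genes, which pattern the tail tip and the distal fin, were also detected at this stage. Together they summed to 11.8, 4.77 and 4.59 TPM in the controls and to 10.4, 1.69 and 2.98 TPM in smad1-cKO libraries. hoxb13a held most of this in several libraries, with 8.30, 1.70 and 2.25 TPM in the controls and 8.18, 0 and 2.74 TPM in smad1-cKO libraries. hoxa13b stood at 3.46, 1.26 and 2.34 TPM against 1.03, 1.69 and 0.244 TPM. Posterior genes made up 8.99 to 40.3% of the summed Hox TPM over the 10 libraries of this stage. Of the posterior genes, 6 were listed at 0 in every library of this stage, namely hoxa9b, hoxa10b, hoxa11a, hoxc12b, hoxd11a and hoxd13a, and 15 of the 48 members never reached 1 TPM.

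At 1 dpf the sums were several-fold higher. Controls of the cKO experiment held 768, 463 and 318 TPM and smad1-cKO libraries 511, 600.0 and 306 TPM. The KD experiment gave 1029 and 848 TPM with the control-MO and 2139.7 and 810.1 TPM with the smad1-MO. Every 1 dpf library lay above every 75% epiboly library, the lowest at 306 TPM and the highest early one at 190.3 TPM. The stages come from tables that were made separately, so this order carries no test. The number of members at 1 TPM or more was 3 to 23 per library at 75% epiboly and 26 to 44 at 1 dpf. In both control-MO libraries at 1 dpf all 48 members lay above 0.

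Central genes took the largest share at 1 dpf. They held 63.4 to 77.8% of the summed Hox TPM in the 10 libraries, anterior genes 13.6 to 24.9% and posterior genes 2.67 to 20.4%. The hoxa4a row alone held 19.03 to 35.2%. It stood at 213, 112 and 62.3 TPM in control libraries against 97.3, 126 and 65.4 TPM in smad1-cKO libraries. It reached 362 and 256 TPM with the control-MO and 632 and 236 TPM with the smad1-MO. Without this row the Hox sum was 556, 350.4 and 255 TPM in the controls and 414, 474 and 240.4 TPM in smad1-cKO libraries. Central genes still led without it, at 382, 234 and 139 TPM in the controls, where anterior genes held 139, 104 and 79.0 TPM. In smad1-cKO libraries central genes held 265, 331 and 153 TPM and anterior genes 119, 122 and 70.9 TPM.

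The next genes by level came from both hoxb clusters. hoxb5a stood at 51.0, 44.9 and 19.9 TPM in controls of the cKO experiment, and its duplicate hoxb5b at 61.8, 35.9 and 20.3 TPM. hoxb8a, used in the trunk, gave 59.0, 39.6 and 7.60 TPM and hoxb6a 43.6, 27.2 and 19.2 TPM. hoxb3a, a hindbrain gene, gave 24.7, 28.4 and 21.1 TPM. The spread of these genes between controls was wide, and their ranges overlapped, so their order beneath hoxa4a is not settled by these libraries. In all 10 libraries 19 members were at 1 TPM or more, and 11 of them were genes of the hoxba and hoxbb clusters numbered 1 to 8. At the other end hoxc12b and hoxc13b never reached 1 TPM.

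**Figure D2:**
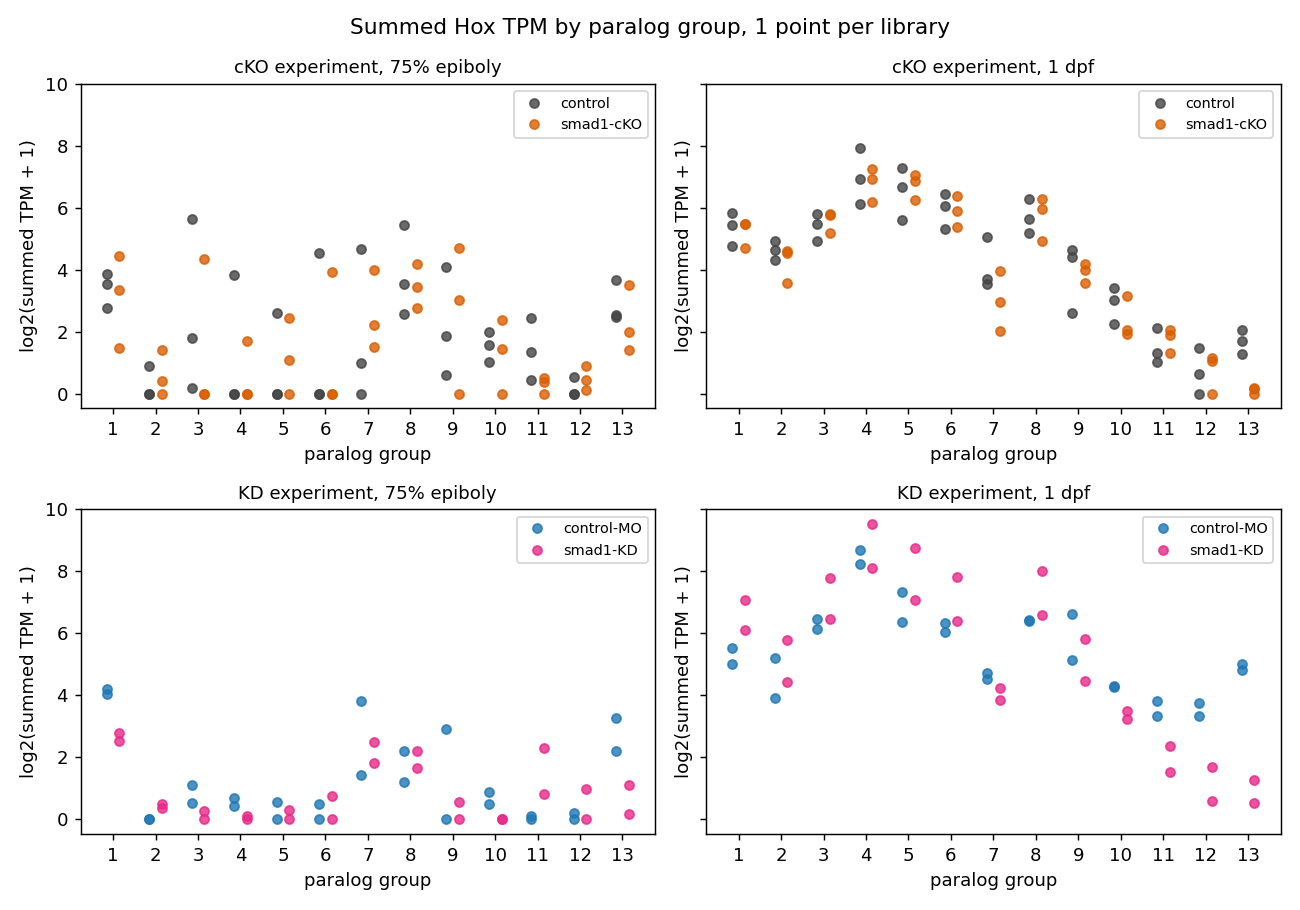
Summed TPM of the Hox genes of each paralog group (horizontal, 1 to 13), as log2(summed TPM + 1), with 1 point per library and 1 panel per experiment and stage. At 1 dpf group 4 is highest in 9 of 10 libraries (group 5 leads in smad1-cKO replicate 3), and the posterior groups are lower; at group 13 the control-MO libraries hold 27.4 and 31.3 TPM at group 13 and the smad1-KD libraries 0.441 and 1.40 TPM.

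The sums by paralog group at 1 dpf were highest at group 4, at 244, 121 and 68.4 TPM in controls, followed by group 5 at 156, 100.1 and 47.6 TPM. Without the hoxa4a row group 4 lay below group 5, at 31.3, 8.57 and 6.08 TPM. From group 9 on the sums were low, at 23.8, 5.08 and 20.2 TPM for group 9 and 0, 0.558 and 1.81 TPM for group 12 in the same controls. By cluster, hoxaa and hoxba led in every 1 dpf control of the cKO experiment. hoxba held 278, 192 and 106 TPM, hoxaa 258, 139 and 77.5 TPM, and hoxbb 107, 82.8 and 52.4 TPM. The rank of hoxaa rests on the hoxa4a row, which may hold reads of hoxa3a and gave 213, 112 and 62.3 TPM of its sums. Without that row hoxaa would lie below hoxbb in each of these controls. hoxcb was lowest, at 8.60, 1.49 and 1.75 TPM.

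Duplicate copies were unequal. hoxc6a exceeded hoxc6b in all 10 libraries of 1 dpf, with medians of 10.5 and 2.75 TPM. hoxb8a exceeded hoxb8b in 9 of 10, with medians of 50.0 and 11.5 TPM, and hoxb6a exceeded hoxb6b in 8 of 10. hoxa11b exceeded hoxa11a in all 10, at medians of 1.22 and 0.0951 TPM. hoxb5a and hoxb5b split evenly, each higher in 5 libraries, and hoxa9a exceeded hoxa9b in 6. hoxb1a exceeded hoxb1b in 7 of 10 libraries, the reverse of the order at 75% epiboly. The 3 exceptions, where hoxb1b stood above hoxb1a, were control replicate 2 (15.97 against 14.6 TPM), smad1-cKO replicate 2 (27.2 against 10.7 TPM) and smad1-KD replicate 2 (30.3 against 19.4 TPM).

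The loss of smad1 in the germline left no Hox gene called at 1 dpf. Of 48 members, 34 had a mean of at least 1 TPM in the table and were tested. No member passed limma at a Benjamini-Hochberg adjusted p of 0.05, against 0% of 17573 genes called higher and 0.00569% called lower, which is smad1 itself. At an unadjusted p below 0.05 there was 1 member, lower, where 2.65% of all genes were lower and 3.73% higher. With the replicate pairs as a block, 14 genes were called by limma and none was a Hox gene, and 3 members had an unadjusted p below 0.05. Of the 34 tested, 16 were higher and 18 lower in smad1-cKO libraries, where 48.3% of all genes were higher, with a median log2 difference of -0.12 beside -0.01 for all genes tested. Without control replicate 1 or smad1-cKO replicate 3 that median turned to 0.06, with 19 members higher in each case. The sums of 516 ± 230.0 TPM in the controls and 472 ± 151 TPM in smad1-cKO libraries (mean ± SD, n = 3 each) differed by less than the spread between replicates.

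The member with the smallest p was hoxa1a, an anterior gene of the midbrain and hindbrain in zebrafish. It stood at 10.7, 9.32 and 4.45 TPM in control libraries against 5.40, 2.62 and 2.62 TPM in smad1-cKO libraries. The groups overlapped, because control replicate 3 lay below smad1-cKO replicate 1, and the log2 difference was -0.99 (SE 0.42, unadjusted p = 0.0412, limma adjusted p = 0.761). hoxb7a followed, at 32.6, 11.9 and 10.7 TPM against 6.79, 14.5 and 3.04 TPM (limma log2 difference -1.13 with SE 0.55 and adjusted p = 0.833). hoxd10a, a posterior gene, stood at 1.74, 1.95 and 5.22 TPM against 2.58, 0.0681 and 0.385 TPM (limma log2 difference -1.08 with SE 0.58 and adjusted p = 0.850). These groups overlapped too.

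Among the members that were higher, hoxc4a had 8.94, 2.04 and 0 TPM in the controls and 12.8, 10.7 and 0.692 TPM in smad1-cKO libraries (limma log2 difference 1.06 with SE 0.96 and adjusted p = 0.917). hoxb4a had 16.9, 5.25 and 0 TPM against 8.75, 11.5 and 4.92 TPM, and hoxc3a 22.3, 12.8 and 4.07 TPM against 13.5, 27.7 and 12.7 TPM, with log2 differences of 0.90 and 0.60. All of these ranges overlapped. Without control replicate 3, hoxb4a turned to -0.24 and hoxc3a to -0.01.

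One posterior gene was separated between the groups without being tested. hoxc13a, a paralog group 13 gene of the tail, had 1.43, 1.45 and 2.22 TPM in the controls and 0.104, 0 and 0 TPM in smad1-cKO libraries. The groups did not overlap, but the mean over the 6 libraries was under the 1 TPM needed for the test. It was the single member of 48 with separated groups in this comparison, and 5.78% of all genes tested had separated groups with lower cKO values and 5.66% with higher. The group 13 sums were 3.20, 1.45 and 2.22 TPM in the controls and 0.104, 0.128 and 0 TPM in smad1-cKO libraries.

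The direction of the remaining members varied from pair to pair. Same-numbered control and smad1-cKO libraries gave a median Hox log2 difference of -0.29 in pair 1, 0.28 in pair 2 and -0.24 in pair 3, with 12, 23 and 13 of 34 members higher in the smad1-cKO library. By region, 4 of 9 anterior, 9 of 16 central and 3 of 9 tested posterior members were higher. The 4 hoxbb members were all higher (median 0.17), and the 4 tested hoxaa and 4 tested hoxda members were all lower (medians -0.37 and -0.93). None of these passed the test, and the differences between clusters were not tested. Skin markers varied between the same libraries, at 4068, 332 and 279.9 TPM in the controls and 5345, 6655 and 260.0 TPM in smad1-cKO libraries, and their part in the Hox values was not tested.

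At 75% epiboly the same knockout comparison tested 13 members, of which 5 were higher and 8 lower, where 43.3% of all genes were higher, with a median of -0.36 beside -0.07 for all 13006 genes tested. The direction rested on single libraries. Without control replicate 3, 7 of 11 were higher with a median of 0.54, without smad1-cKO replicate 2, 10 of 16 were higher with a median of 0.25, and without smad1-cKO replicate 3 all 13 were lower with a median of -0.89. No member was called, where 0% of all genes were called in either direction, and none had an unadjusted p below 0.05, against 0.6% of all genes higher and 1.21% lower. No tested member had separated groups, against 1.85% of all genes higher and 3.36% lower.

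The lower members with the smallest p were hoxb4a, hoxa13b and hoxb3a. hoxb4a had 0, 0 and 10.9 TPM in the controls and 0, 0 and 0.133 TPM in smad1-cKO libraries, and hoxb3a 0.231, 0.129 and 17.8 TPM against 0, 0 and 1.93 TPM. Both values thus rested on control replicate 3. The log2 differences were -1.13 (SE 0.96) for hoxb4a, -1.05 for hoxb3a and -0.77 for hoxa13b, each with a limma adjusted p of 1.00. Without the replicate 3 libraries, left out after the data had been seen, 8 members were tested, 4 in each direction, with a median of 0.08. The members that were higher on the log2(TPM + 1) scale, hoxb7a, hoxb9a and hoxa9a, had differences of 0.68, 0.52 and 0.24 and the same adjusted p. For hoxb7a the mean TPM ran the other way, at 8.54 TPM in the controls and 6.77 TPM in smad1-cKO libraries.

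**Figure D3:**
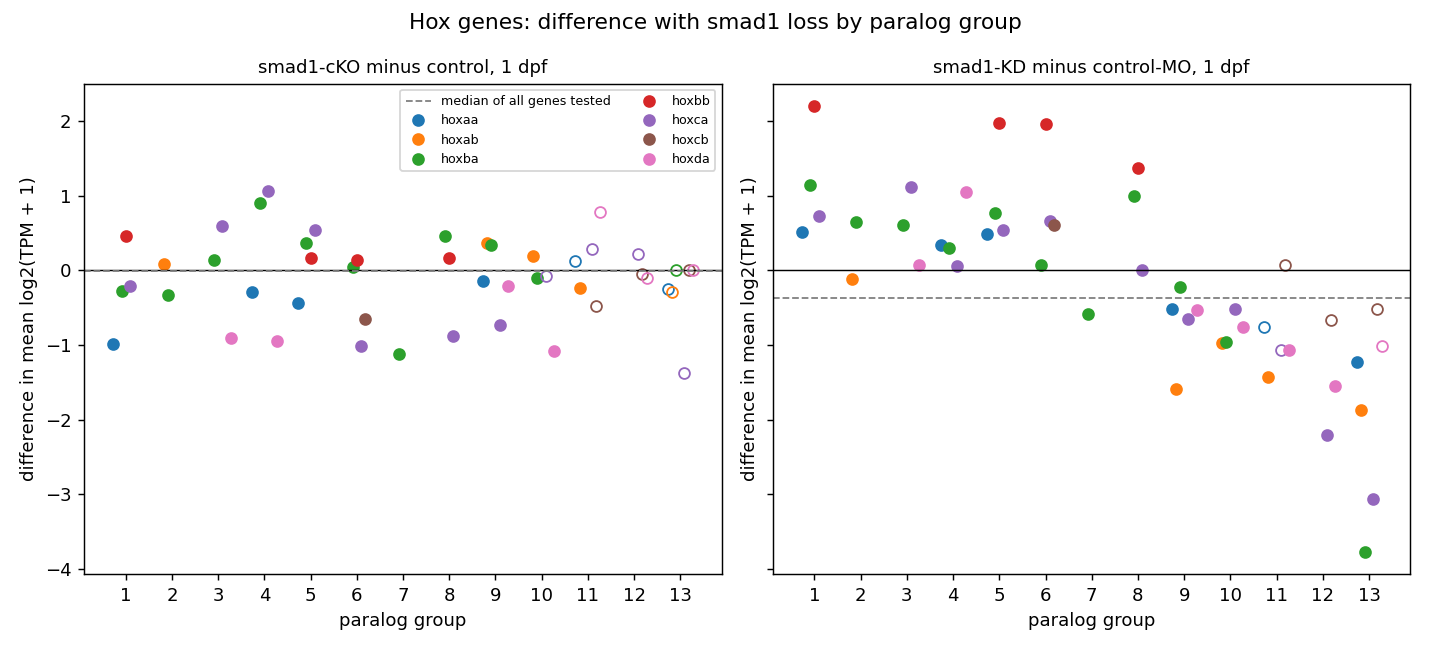
Difference in mean log2(TPM + 1) between smad1 loss and control at 1 dpf (vertical) for each Hox gene by paralog group (horizontal), coloured by cluster; filled points were tested, open points were not, and the dashed line is the median of all genes tested. In the knockout the points lie on both sides of 0 except at groups 7 and 13. The single group 7 point is at -1.13, and at group 13, 3 points lie below 0 and 3 at 0. In the knockdown groups 1 to 8 lie mostly above 0 and groups 9 to 13 mostly below.

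The knockdown at 1 dpf gave a different picture along the clusters, although no Hox gene was called in its main fit either. Anterior and central genes were mostly higher in smad1-KD PGCs, and posterior genes were mostly lower. On the log2(TPM + 1) scale 23 of 25 anterior and central genes were higher, hoxa2b and hoxb7a excepted, and 22 of 23 posterior genes were lower, hoxc11b excepted. Of all genes tested 23.8% were higher, so most genes of any kind were lower here. Across the 48 genes Spearman's rho between paralog number and log2 difference was -0.81, and -0.79 across the 42 tested. In the cKO at 1 dpf the same values were -0.04 and -0.05. There only 9 of the 23 posterior members passed the 1 TPM filter, so these values say little about posterior genes. Of the 23, 7 were higher, 13 lower and 3 equal. The group 13 sums were lower in that experiment too, at 3.20, 1.45 and 2.22 TPM in the controls against 0.104, 0.128 and 0 TPM. The rho values are descriptions across genes that share libraries and, in part, reads, and genes are not replicates.

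No member of the 42 tested passed limma after adjustment, where 0% of 17141 genes did in either direction. With the replicate number as a block, 8 members were called by limma, 3 higher and 5 lower, among 866 genes. At an unadjusted p below 0.05 there were 4 higher members, against 1.1% of all genes, and 8 lower members, against 8.8%. The groups were separated for 9 members that were higher, where 5.57% of all genes tested were, and for 14 that were lower, where 34.7% were. Above 0 lay 23.8% of all genes in this comparison and 23 of the 42 Hox members. The median of all genes was -0.38, that of the 25 anterior and central members 0.61, and that of the 17 tested posterior members -1.07.

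The scaling moves these values. With quantile normalization or median-ratio scaling the median of all genes lay at 0.01 and -0.03, a shift of more than 0.1, so Hox differences are best read relative to it. The anterior and central median was then 1.03 and 1.00, with 24 of 25 higher, and the posterior median -0.55 and -0.74, with 16 of 17 lower. The smad1-KD replicate 1 library carried the highest Hox sum of the series. Its smad1 level was 170.3 TPM, against 70.3 TPM in smad1-KD replicate 2 and 201 and 193 TPM with the control-MO. The anterior and central sums were 406 and 1665 TPM in smad1-KD replicate 1 and 175 and 598 TPM in smad1-KD replicate 2. With the control-MO, replicate 1 also had the higher sums, at 168 and 762 TPM against 115 and 560 TPM. Whether the order of the smad1-KD libraries is related to their smad1 levels was not tested. Without smad1-KD replicate 1, 14 of 25 anterior and central members were higher, with a median of 0.02 beside 18 of 18 posterior members lower at -1.20. Relative to the median of all genes in that fit the anterior and central median was 0.73 and the posterior one -0.50. Without control-MO replicate 2, 18 of 25 were higher and 11 of 14 posterior members lower.

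The anterior genes give the largest single difference on the higher side. hoxb1b stood at 7.80 and 6.50 TPM with the control-MO and at 43.7 and 30.3 TPM with the smad1-MO (limma log2 difference 2.202 with SE 0.52 and adjusted p = 0.140). The groups were separated. Its duplicate hoxb1a gave 19.3 and 9.97 TPM against 52.1 and 19.4 TPM, and the cluster neighbour hoxb2a 31.9 and 11.6 TPM against 48.7 and 19.4 TPM. hoxb1a was separated by a narrow margin and hoxb2a overlapped. Of the 9 anterior members 8 were higher, where 23.8% of all genes were, and 4 of them had separated groups, where 5.57% of all genes were separated on that side.

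The central genes of the hoxbb cluster, to which hoxb1b belongs, were higher too. hoxb5b stood at 26.9 and 18.8 TPM with the control-MO and at 150.0 and 55.6 TPM with the smad1-MO (limma log2 difference 1.97 with SE 0.59 and adjusted p = 0.250). hoxb6b gave 16.6 and 19.1 TPM against 119 and 43.6 TPM (limma log2 difference 1.96 with SE 0.59 and adjusted p = 0.250). hoxb8b gave 5.44 and 10.5 TPM against 21.2 and 21.3 TPM. Without smad1-KD replicate 1 the differences were 1.27 for hoxb5b and 1.25 for hoxb6b, and without smad1-KD replicate 2 they were 2.68 and 2.67. The annotated span of hoxb1b overlaps hoxb5b and hoxb6b, so these members may share reads and are not separate observations. All 4 hoxbb members had separated groups on the higher side, where 5.57% of all genes did. Their sum was 56.8 and 54.9 TPM with the control-MO and 334 and 151 TPM with the smad1-MO. In the cKO experiment at 1 dpf that sum was 107, 82.8 and 52.4 TPM in the controls and 84.6, 149 and 52.6 TPM in smad1-cKO libraries, which overlapped.

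The other central genes were higher mainly in smad1-KD replicate 1. hoxb8a gave 58.6 and 51.8 TPM against 191 and 63.6 TPM, and hoxc3a, of the anterior groups, 32.0 and 30.5 TPM against 107 and 44.6 TPM, both separated. hoxa4a gave 362 and 256 TPM against 632 and 236 TPM, hoxb5a 65.7 and 34.8 TPM against 139 and 48.7 TPM, and hoxa5a 46.9 and 22.9 TPM against 114 and 18.6 TPM, all overlapping. hoxb7a was lower, at 22.3 and 25.5 TPM with the control-MO and 18.0 and 13.4 TPM with the smad1-MO.

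**Figure D4:**
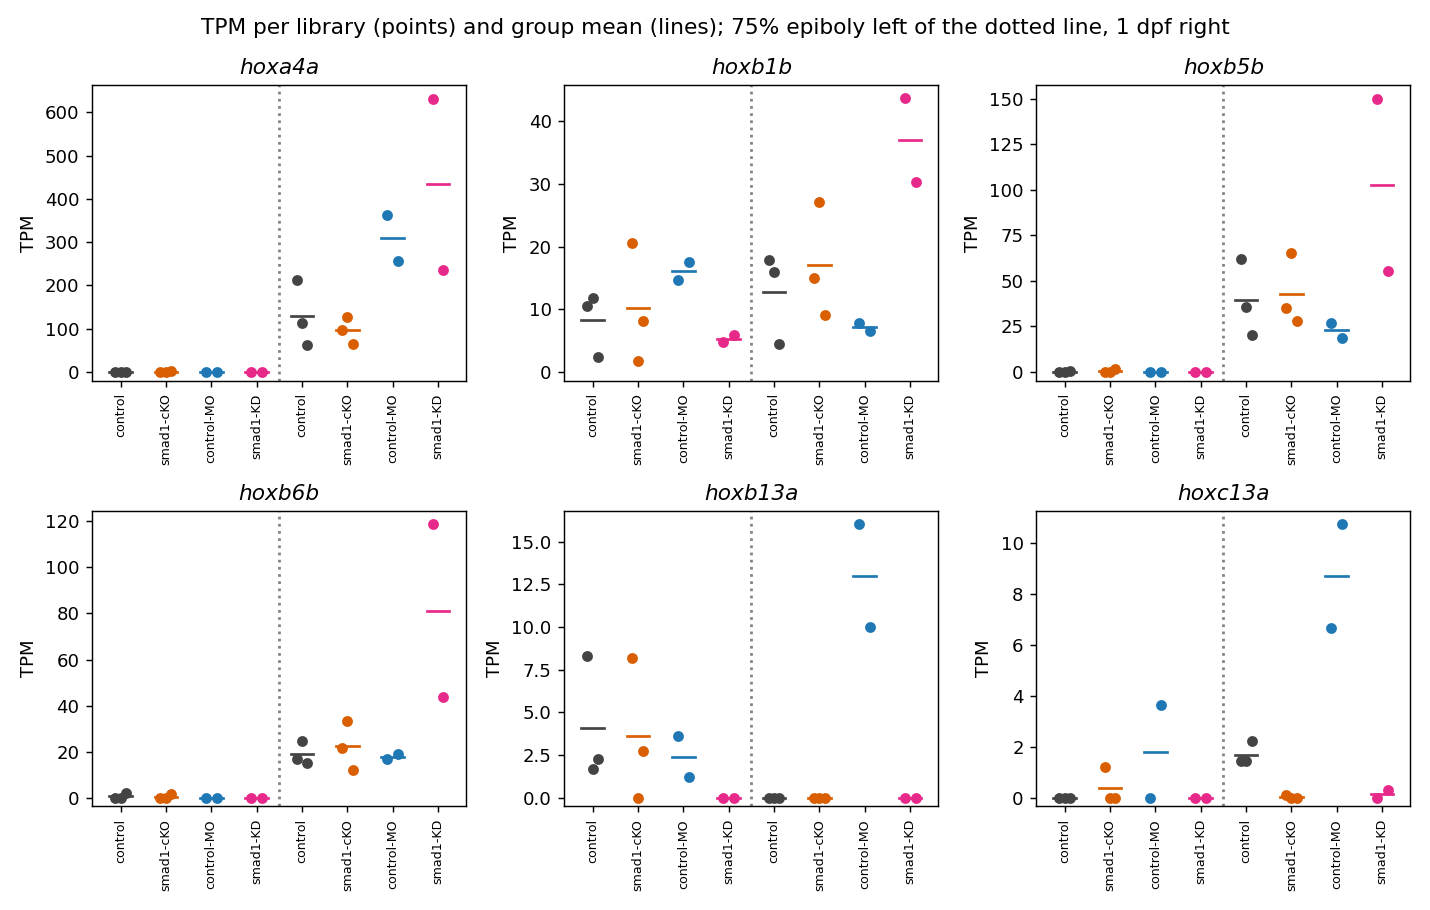
TPM of 6 Hox genes in each library (points, with the group mean as a line), with 75% epiboly to the left of the dotted line and 1 dpf to the right. hoxb1b and hoxb6b are highest in the 2 smad1-KD libraries at 1 dpf, hoxb5b is highest in smad1-KD replicate 1 with replicate 2 within the range of the cKO experiment, and hoxb13a and hoxc13a are highest in the 2 control-MO libraries at 1 dpf.

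On the lower side paralog group 13 stood out. hoxb13a was present at 16.01 and 10.01 TPM with the control-MO and was listed at 0 in both smad1-KD libraries. It had the smallest adjusted p among the members, which missed the threshold (limma difference of -3.77 in log2(TPM + 1), with SE 0.52 and adjusted p = 0.0505). The size of that difference depends on the pseudocount because the smad1-KD values are at 0. hoxc13a stood at 6.66 and 10.7 TPM against 0 and 0.288 TPM (limma log2 difference -3.06 with SE 0.52 and adjusted p = 0.0764). hoxa13b stood at 1.62 and 5.15 TPM against 0.0433 and 0.143 TPM, and hoxa13a at 1.77 and 3.18 TPM against 0.0660 and 0.972 TPM. The 4 members of the group that were tested were lower with separated groups, where 34.7% of all genes were separated on that side, and the remaining 2, below the 1 TPM filter, were lower and separated as well. The sum of the 6 was 27.4 and 31.3 TPM against 0.441 and 1.40 TPM.

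The genes next to them followed. hoxc12a stood at 6.13 and 7.92 TPM with the control-MO and at 0 and 2.01 TPM with the smad1-MO (limma log2 difference -2.202 with SE 0.62 and adjusted p = 0.210). Without smad1-KD replicate 1 the difference for hoxc12a was -1.41, and without smad1-KD replicate 2 it was -2.995. hoxd12a had 1.95 and 4.48 TPM against 0.508 and 0.260 TPM, and hoxa11b 2.39 and 6.33 TPM against 0.478 and 1.32 TPM. All 4 group 10 members were separated on the lower side, as were 34.7% of all genes, for example hoxd10a at 4.31 and 4.90 TPM against 1.67 and 3.07 TPM. In group 9 the separation ended. hoxc9a gave 12.3 and 45.4 TPM against 26.3 and 8.06 TPM and hoxa9a 5.00 and 13.99 TPM against 9.07 and 3.36 TPM, and hoxa9b, at 5.92 and 18.7 TPM against 4.76 and 1.63 TPM, was the 1 separated member of 5.

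The levels of these posterior genes in control-MO libraries can be set beside those in the controls of the cKO experiment, whose labels name no morpholino. Group 13 genes summed to 27.4 and 31.3 TPM in control-MO libraries and to 1.45 to 3.20 TPM in controls at 1 dpf, and hoxb13a was listed at 0 in all 6 libraries of the cKO experiment at that stage. The posterior share of the Hox sum was 9.54 and 20.4% in control-MO libraries, 3.22 and 4.58% in smad1-KD libraries and 2.67 to 11.7% in the cKO experiment. The tables were made separately and the values are set side by side with no test.

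Markers of other tissues differed between the same libraries. At 1 dpf the list of paraxial mesoderm, tailbud and muscle markers summed to 64.7 and 74.7 TPM with the control-MO. With the smad1-MO it summed to 28.6 and 18.8 TPM. The list has 17 rows for 16 genes. Of the rows, 10 to 13 stood at 1 TPM or more with the control-MO and 5 to 8 with the smad1-MO. Within this list tbxta, the Brachyury gene of notochord and tailbud, stood at 18.7 and 26.4 TPM against 2.21 and 2.67 TPM. myod1 was separated too, at 1.67 and 1.91 TPM against 0.554 and 1.08 TPM. her7 was low with the control-MO, at 1.02 and 0.0967 TPM, and was listed at 0 in both smad1-KD libraries. tbx16 overlapped, at 1.11 and 1.08 TPM against 0.638 and 1.16 TPM, as did msgn1 and her1. Blood and endothelium markers, mostly embryonic globins, summed to 15050.4 and 4789 TPM with the control-MO and to 25987 and 56827 TPM with the smad1-MO, within a total that all genes of a library share. Neural markers summed to 144 and 282 TPM against 113 and 181 TPM, and markers of lateral plate, pronephros and fin bud to 34.4 and 41.1 TPM against 57.3 and 37.3 TPM. Skin markers summed to 1191 and 1119 TPM against 668 and 1050 TPM. Those of endoderm, yolk layer and liver summed to 65.5 and 81.2 TPM against 60.2 and 54.1 TPM. The sums of both lists were thus lower with separated groups as well. In this comparison 34.7% of all genes tested were separated on the lower side, and only 23.8% were higher. Germ cell markers summed to 5259 and 1542 TPM against 4815 and 1063 TPM. The part of these tissues in the Hox differences was not tested.

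**Figure D5:**
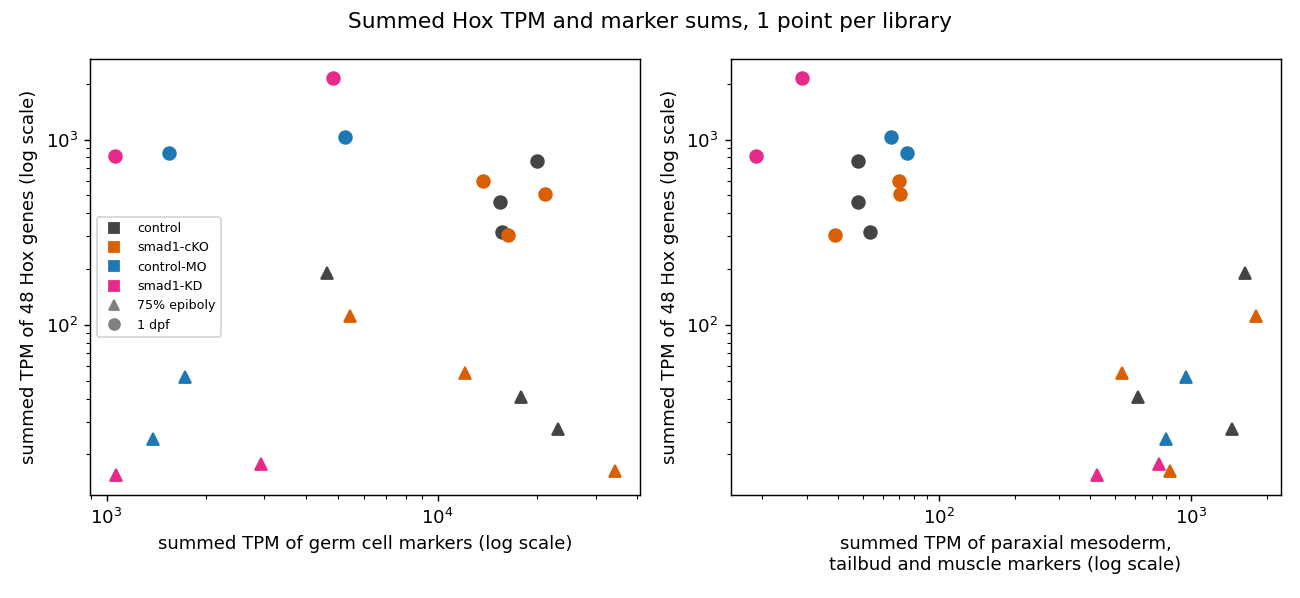
Summed TPM of the 48 Hox genes (vertical, log scale) against the summed TPM of the germ cell markers (left) and of the paraxial mesoderm, tailbud and muscle markers (right, both log scale), with 1 point per library. The 2 smad1-KD libraries at 1 dpf have the lowest sums of the mesoderm list, 28.6 and 18.8 TPM, while their Hox sums, 2139.7 and 810.1 TPM, are among the higher ones.

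At 75% epiboly the knockdown comparison tested 6 members, of which 2 were higher and 4 lower, where 45.2% of all genes were higher, with a median of -0.51 beside -0.06 for all 12968 genes tested. Without control-MO replicate 2 that median turned to 0.70, with 3 of 5 higher. No member was called, where 0% of all genes were called in either direction, and none had an unadjusted p below 0.05, against 0.324% of all genes higher and 0.941% lower. Among those tested 1 was separated on the higher side, where 7.37% of all genes were, and 2 on the lower side, where 14.9% were.

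hoxb1b was one of these, at 14.7 and 17.54 TPM with the control-MO and 4.74 and 5.91 TPM with the smad1-MO (log2 difference -1.44, SE 0.72, unadjusted p = 0.0723, limma adjusted p = 1.00). hoxb13a was the other, at 3.59 and 1.19 TPM against a listing of 0 in both smad1-KD libraries (limma log2 difference -1.66 with adjusted p = 1.00). hoxa13b, at 0 and 3.64 TPM against 1.18 and 0 TPM, had a log2 difference of -0.54. On the higher side hoxc11a gave 0.0795 and 0 TPM against 3.94 and 0.401 TPM, and hoxb8a 0 and 2.61 TPM against 3.501 and 1.46 TPM, with log2 differences of 1.34 and 0.81. hoxb13a was thus listed at 0 in all 4 smad1-KD libraries of both stages and was above 0 in all 4 control-MO libraries. Neither difference was called in its main fit, and 14.9% (75% epiboly) and 34.7% (1 dpf) of all genes tested were separated on that side. The cKO experiment showed no such split. There hoxb13a was at 0 in every 1 dpf library, controls included. At 75% epiboly its smad1-cKO levels of 8.18, 0 and 2.74 TPM overlapped the control range of 1.70 to 8.30 TPM.

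Genes that work with or upstream of the Hox genes were followed by list. None of them was called in any of the 4 comparisons. Of the Hox cofactors of the Meis, Pbx and Pknox families, 8 of 14 tested rows were higher and 6 lower in the cKO at 1 dpf (median 0.06), and 6 of 13 were higher and 7 lower in the KD at 1 dpf (median -0.01 beside -0.38 for all genes). meis1a, the cofactor that partners anterior Hox proteins with Pbx, stood at 99.0 and 80.9 TPM with the control-MO and 189 and 95.6 TPM with the smad1-MO. pbx4, the main embryonic Pbx of zebrafish, stood at 86.9 and 103 TPM against 81.8 and 38.8 TPM. At 75% epiboly 3 of 10 cofactors were higher and 7 lower in the cKO (median -0.38) and 1 of 7 was higher and 6 lower in the KD (median -0.28).

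Of the ParaHox and Evx genes, all 4 tested in the KD at 75% epiboly were lower (median -1.49). Of all genes 45.2% were higher in that comparison, with a median of -0.06. A row of evx1 below the 1 TPM filter, and so not tested, went the other way. It stood at 0.722 and 0 TPM with the control-MO and at 1.97 and 0.993 TPM with the smad1-MO. cdx4, a Cdx factor that activates trunk and tail Hox genes, stood at 321 and 326 TPM with the control-MO and 202 and 71.5 TPM with the smad1-MO (limma log2 difference -1.42 with unadjusted p = 0.0198). eve1, an Evx gene of the ventral and posterior gastrula, stood at 209 and 121 TPM against 59.1 and 22.4 TPM (limma log2 difference -2.09 with unadjusted p = 0.00454). Both had separated groups, as did 14.9% of all genes tested on the lower side, and an adjusted p of 1.00. At 1 dpf cdx4 was higher with the smad1-MO, at 5.23 and 3.42 TPM against 18.6 and 8.16 TPM (limma log2 difference 1.35 with adjusted p = 0.456), and 2 of the 4 tested were higher and 2 lower. In the cKO all 3 tested at 75% epiboly were lower (median -0.30) and all 4 tested at 1 dpf were higher (median 0.44). Of all genes 43.3% and 48.3% were higher in these comparisons.

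In the retinoic acid pathway, 7 of 19 tested genes were higher and 12 lower in the KD at 1 dpf, where 23.8% of all genes were higher, with a median of -0.24 beside -0.38 for all genes. cyp26a1, the enzyme that degrades retinoic acid and is itself induced by it, stood at 100.3 and 58.0 TPM with the control-MO and 521 and 222 TPM with the smad1-MO (limma log2 difference 2.14 with SE 0.55 and adjusted p = 0.171). aldh1a2, which makes retinoic acid in the trunk mesoderm, stood at 8.76 and 10.1 TPM against 10.02 and 8.59 TPM, which overlapped. In the cKO at 1 dpf cyp26a1 stood at 76.5, 49.4 and 50.5 TPM against 63.0, 41.1 and 53.9 TPM. There dhrs3a, a retinaldehyde reductase, stood at 109, 92.5 and 79.1 TPM against 60.4, 54.3 and 62.3 TPM (limma log2 difference -0.64 with SE 0.18 and adjusted p = 0.449). Its groups were separated, as were those of 5.78% of all genes tested on the lower side. In that comparison 6 of 18 genes of the list were higher and 12 lower (median -0.20). At 75% epiboly 5 of 13 were higher and 8 lower in the cKO (median -0.33), and 7 of 11 higher and 4 lower in the KD (median 0.11).

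Of the Polycomb and Trithorax regulators, which hold Hox clusters silent or active, 4 of 30 tested were higher and 26 lower in the KD at 1 dpf, with a median of -0.45 beside -0.38 for all genes. In the cKO at 1 dpf 17 of 30 were higher and 13 lower (median 0.06), and at 75% epiboly 9 of 26 were higher and 17 lower in both the cKO and the KD (medians -0.10 and -0.09). ezh2, the catalytic subunit that places the Polycomb histone mark, had 30.0, 27.0 and 24.1 TPM in control libraries and 30.9, 26.4 and 34.2 TPM in smad1-cKO libraries at 1 dpf. With the control-MO it stood at 13.5 and 16.2 TPM and with the smad1-MO at 13.8 and 11.8 TPM. The ranges overlapped in both.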

How the data were processed

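RNA of sorted PGCs was measured in 20 libraries. The authors deposited them as TPM, in 4 separately made tables of 32520 genes. The tools named in the submitters' processing notes, without their roles, are StringTie 2.2.1 and STAR 2.7.10b, with the build GRCz11, and 896 genes have no name. The DNA amplicon libraries were not used here. TPM keep no depth, so counting error is unknown. Values were taken as log2(TPM + 1), genes with a mean of at least 1 TPM in a table were kept, and smad1 loss was compared with its control within each table by limma 3.58.1 (R 4.3.3) with an intensity trend, Benjamini-Hochberg adjustment over all genes tested and a threshold of 0.05. Log2 differences on this scale understate changes of low genes. Medians and sums describe the members and carry no test. The fit was tried on simulated data with independent noise per gene and effects planted only in better expressed genes. That trial does not show how the fit performs on low Hox genes. The members, the paralog regions and the gene lists were chosen with earlier results of these data known. A difference is printed for up to 3 members per direction with the smallest p in each comparison, for some of them without the p. Any member may be named by its TPM, and genes of the other lists were named after their values were seen. Same-numbered libraries of the cKO experiment deviated together. Correlations of their deviations from the group means were 0.176, 0.196 and 0.417 at 75% epiboly and 0.265, 0.105 and 0.272 at 1 dpf. The main fit did not pair these libraries, so its SE and p are unpaired. Pairing entered only through the replicate block and the differences within pairs. As alternatives the libraries were rescaled (quantile normalization or median ratios), the filter was dropped or raised to 5 TPM, the pseudocount was set to 0.1, the intensity trend was left out, the replicate number was added as a block, and each library was left out in turn. Gene overlaps were read from RefSeq, whose assembly is not the build of the tables, so no coordinates are given. Figures were drawn with matplotlib 3.10.9.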

Additional observations from a re-analysis of the deposited data

Results flagged for a closer look

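hoxb1b differed in opposite directions in the knockdown at the 2 stages. With the smad1-MO it was lower at 75% epiboly, at 4.74 and 5.91 TPM against 14.7 and 17.54 TPM with the control-MO, and higher at 1 dpf, at 43.7 and 30.3 TPM against 7.80 and 6.50 TPM. Both smad1-KD libraries lay on one side of both control-MO libraries at the first stage and on the other side at the second. The log2 differences were -1.44 and 2.202, which lie 3.64 apart. The tables of the stages were made separately, so this difference was not tested. Neither value passed limma after adjustment.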

How the results depend on the processing

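No Hox member was called under any alternative of either cKO comparison or of the KD at 75% epiboly, and the replicate block changed no Hox call there. In the KD at 1 dpf, where the main count was 0, hoxb13a was called lower (a count of 1) without the intensity trend (adjusted p = 0.0464) and without either control-MO library, so that leaving out 1 library gave 0 to 1 called lower. With the replicate number as a block, 5 members were called lower and 3 higher, among 866 genes against 0 without it. The 2 KD pairs, like the cKO pairs, share only a number in the labels (correlation 0.601 at 1 dpf and 0.0777 at 75% epiboly). Leaving out 1 library at a time moved the median Hox difference from -0.89 to 0.54 in the cKO at 75% epiboly and from -0.29 to 0.06 at 1 dpf, from -1.65 to 0.70 in the KD at 75% epiboly and from -0.58 to 0.66 at 1 dpf, and the anterior and central median at 1 dpf from 0.023 to 1.29. Leaving out both replicate 1 libraries of the KD at 1 dpf was added after the data had been seen. It gave a median of -0.54 for all Hox members tested, beside -0.69 for all genes. The anterior and central median was then 0.17, and the smad1 difference was -1.44. The posterior median was -1.62 with a pseudocount of 0.1. Leaving out 1 library could turn the direction of hoxb7a (-0.27 to 2.07), hoxb9a (-0.14 to 1.45) and hoxa9a (-0.19 to 0.78) in the cKO at 75% epiboly, of hoxc3a (-0.0085 to 1.09) and hoxb4a (-0.24 to 1.84) at 1 dpf, and of hoxb8a (-0.12 to 1.74) and hoxa13b (-1.65 to 0.019) in the KD at 75% epiboly. Members at 1 TPM or more in at least 2 control libraries numbered 10 and 34 in the cKO experiment (75% epiboly and 1 dpf) and 3 and 43 in the KD experiment, and at 5 TPM or more 2, 20, 1 and 30. The causes were not tested. TPM keep no depth, so whether a value at 0 reflects absence or shallow sampling cannot be told apart.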
